A study of Mus musculus with 8 samples.

Results

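The nuclear receptor family was examined for H3K27-me3, a histone mark associated with silent genes, in fasted mouse liver with and without downregulation of JMJD3. The 45 receptors were taken by gene name from 21938 protein-coding genes. They were divided by what is generally known of their use in liver into 24 receptors that are active there and 21 others. No measured value entered either rule, but both were set with earlier results of these data known, so the contrast between the groups is a description. Of the 24, 17 are known for their action in hepatocytes and 7 are expressed in most tissues.

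ChIP-seq had been performed on livers of male C57BL/6 mice that all carried the JMJD3-floxed allele, the AAV-GFP controls included. AAV-TBG-Cre, whose promoter drives Cre in hepatocytes, or AAV-GFP was given when the mice were 8 weeks old. They were fasted for 16 h at 12 weeks after injection. Each virus group had 2 H3K27-me3 and 2 input libraries, and the authors combined the H3K27-me3 libraries of a group into 1 list of enriched regions. The lists are called AAV-Cre and AAV-GFP here. The labels name primary liver cells, whereas the protocol describes minced liver, so the chromatin came from all cells of the tissue. In such bulk samples, fewer marked cells and less mark per cell cannot be told apart.

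The AAV-Cre list held 59267 regions over 73.7 Mb, and the AAV-GFP list held 34586 regions over 14.9 Mb. The narrowest region was 300 bp in AAV-Cre and 120 bp in AAV-GFP, so the lists were not called to the same width. The lists give no reads per library, their depth is unknown, and no value per mouse could be had. There was therefore no replicate error to set a difference against, no test was made between the virus groups, and a region in only 1 list is a difference in calls, not a measured difference in the level of the mark. The lists hold no measure of JMJD3 itself, so its downregulation could not be checked in them.

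Nuclear receptors are transcription factors, most of which have a DNA-binding domain and a ligand-binding domain. Many bind fatty acids, bile acids, sterols, retinoids, steroids or thyroid hormone. Several act as heterodimers with a retinoid X receptor on repeats of a short DNA motif. In liver, PPARα directs fatty acid oxidation in fasting, FXR senses bile acids and HNF4α maintains hepatocyte identity. H3K27-me3 is deposited by Polycomb repressive complexes and is found over the start sites of developmental and lineage regulators in tissues that do not use them, and JMJD3 removes it.

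The sequences before the start sites that the results turn on were read from the GRCm38.p6 assembly of RefSeq. They are the 250 bases before the start in the direction of transcription, with each CpG dinucleotide in capitals, because CpG-rich start sites are those at which Polycomb complexes are usually found. Ppara, Rxra and Nr0b2 are shown as liver receptors with no region nearby, and Rara as the only receptor active in liver with a region over a start site. Nr4a1 and Nr2f2 follow, with start sites that were inside a region in AAV-Cre only.
Ppara, chr15:85735314-85735563, plus strand: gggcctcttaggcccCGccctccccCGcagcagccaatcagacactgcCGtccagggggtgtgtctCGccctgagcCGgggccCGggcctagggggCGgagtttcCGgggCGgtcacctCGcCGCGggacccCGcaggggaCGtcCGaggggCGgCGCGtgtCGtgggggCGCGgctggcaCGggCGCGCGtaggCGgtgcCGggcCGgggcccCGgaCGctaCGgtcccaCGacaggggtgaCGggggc
Rxra, chr2:27676951-27677200, plus strand: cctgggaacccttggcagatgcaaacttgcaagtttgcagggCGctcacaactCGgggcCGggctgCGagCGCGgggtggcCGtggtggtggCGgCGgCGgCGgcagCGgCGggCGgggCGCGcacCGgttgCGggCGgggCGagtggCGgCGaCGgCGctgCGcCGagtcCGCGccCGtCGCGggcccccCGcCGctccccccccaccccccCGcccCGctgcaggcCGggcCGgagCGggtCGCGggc
Nr0b2, chr4:133553126-133553375, plus strand: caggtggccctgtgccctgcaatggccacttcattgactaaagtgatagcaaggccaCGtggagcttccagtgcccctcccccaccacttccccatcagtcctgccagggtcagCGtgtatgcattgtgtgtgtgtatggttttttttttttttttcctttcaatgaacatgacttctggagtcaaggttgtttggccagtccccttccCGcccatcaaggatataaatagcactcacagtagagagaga
Rara, upstream start, chr11:98927568-98927817, plus strand: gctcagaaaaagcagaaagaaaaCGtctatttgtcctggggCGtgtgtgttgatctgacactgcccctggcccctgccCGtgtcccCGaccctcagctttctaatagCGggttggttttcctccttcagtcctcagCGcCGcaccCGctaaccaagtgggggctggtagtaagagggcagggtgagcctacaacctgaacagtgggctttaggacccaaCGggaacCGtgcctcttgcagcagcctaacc
Nr4a1, downstream start, chr15:101266596-101266845, plus strand: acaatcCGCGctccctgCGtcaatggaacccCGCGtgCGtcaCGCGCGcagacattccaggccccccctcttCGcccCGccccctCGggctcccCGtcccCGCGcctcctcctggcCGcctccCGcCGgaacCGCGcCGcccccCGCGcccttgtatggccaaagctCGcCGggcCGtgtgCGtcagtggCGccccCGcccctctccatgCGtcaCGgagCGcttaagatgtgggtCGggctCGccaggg
Nr2f2, upstream start, chr7:70366736-70366985, minus strand: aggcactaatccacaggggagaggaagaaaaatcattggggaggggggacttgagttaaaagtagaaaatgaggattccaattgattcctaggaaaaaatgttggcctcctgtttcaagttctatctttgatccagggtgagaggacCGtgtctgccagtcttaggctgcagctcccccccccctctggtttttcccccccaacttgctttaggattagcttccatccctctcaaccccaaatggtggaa
The stretches of Ppara, Rxra and Nr0b2 held 33, 40 and 3 CpG, and none of their bases lay inside a region of either list. In AAV-Cre the stretches of Rara with 10 CpG, of Nr4a1 with 34 and of Nr2f2 with 1 were each inside a region for all of their bases, and in AAV-GFP for none. Among these 6, stretches rich and poor in CpG stood on both the covered and the uncovered side. They were chosen by name and by their calls, so they cannot show whether CpG content goes with the mark. The hexamer AGGTCA, or TGACCT for the other strand, was in none of these 6 stretches. It was present before the first start site of 5 of the 45 receptors (11.1%) and of 12.5% of all protein-coding genes.

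Receptors were first scored in the window used by the study, and counted as marked if a region came within 15 kb of any start site. By this rule 23 of the 45 receptors (51.1%) were marked in AAV-Cre, beside 41.5% of all protein-coding genes. In AAV-GFP 22 receptors (48.9%) were marked, beside 27.9% of all genes. The lists had 21 marked receptors in common (46.7%, beside 26.7%). Marked in AAV-Cre only were Nr1h2 and Rxrb, 4.44% of the receptors beside 14.8% of all genes. Rora was marked in AAV-GFP only, 2.22% beside 1.22%. Another 21 receptors were marked in neither list. With regions limited to a q-value of 0.01 or lower, 6 receptors were marked in AAV-Cre only (13.3%, beside 19.3% of all genes) and 0 in AAV-GFP only (beside 0.237%).

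Most of the marked receptors were outside the group active in liver. Of the 21 other receptors, 18 were marked in AAV-Cre and the same 18 in AAV-GFP, 85.7% of the group. Of the 24 receptors active in liver, 5 were marked in AAV-Cre (20.8%) and 4 in AAV-GFP (16.7%). Among the 17 hepatocyte receptors these counts were 1 and 2. The division matters for these small numbers, since a stricter list of 11 liver receptors had 0 marked in each list and a wider one had 8 and 7. The 3 other receptors with no region within 15 kb in either list were Rarb, Hnf4g and Nr3c2, which encode retinoic acid receptor β, a homolog of HNF4α and the mineralocorticoid receptor.

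Within 1 kb of a start site the groups lay further apart. In AAV-Cre 17 of the 21 other receptors had a region there, and in AAV-GFP 15 had one. Among the 24 receptors active in liver, Rara alone did so, in both lists, and none of the 17 hepatocyte receptors did. Over all 45 receptors this made 18 in AAV-Cre (40.0%) and 16 in AAV-GFP (35.6%), beside 23.9% and 16.6% of all genes. With regions limited to a q-value of 0.01 or lower, the counts within 1 kb were 18 and 13. The share of all genes within 1 kb was not recomputed at that limit. Regions over the gene body gave 18 and 17 receptors, beside 28.8% and 20.7% of all genes. Again Nr2f2 and Nr4a1 had them in AAV-Cre only (4.44%, beside 8.87%), and Rarb in AAV-GFP only (2.22%, beside 0.725%). Those with a region within 1 kb in AAV-Cre only were Nr2f2 and Nr4a1, 4.44% beside 7.62% of all genes, and 0 receptors had one in AAV-GFP only, beside 0.287%.

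**Figure D1:**
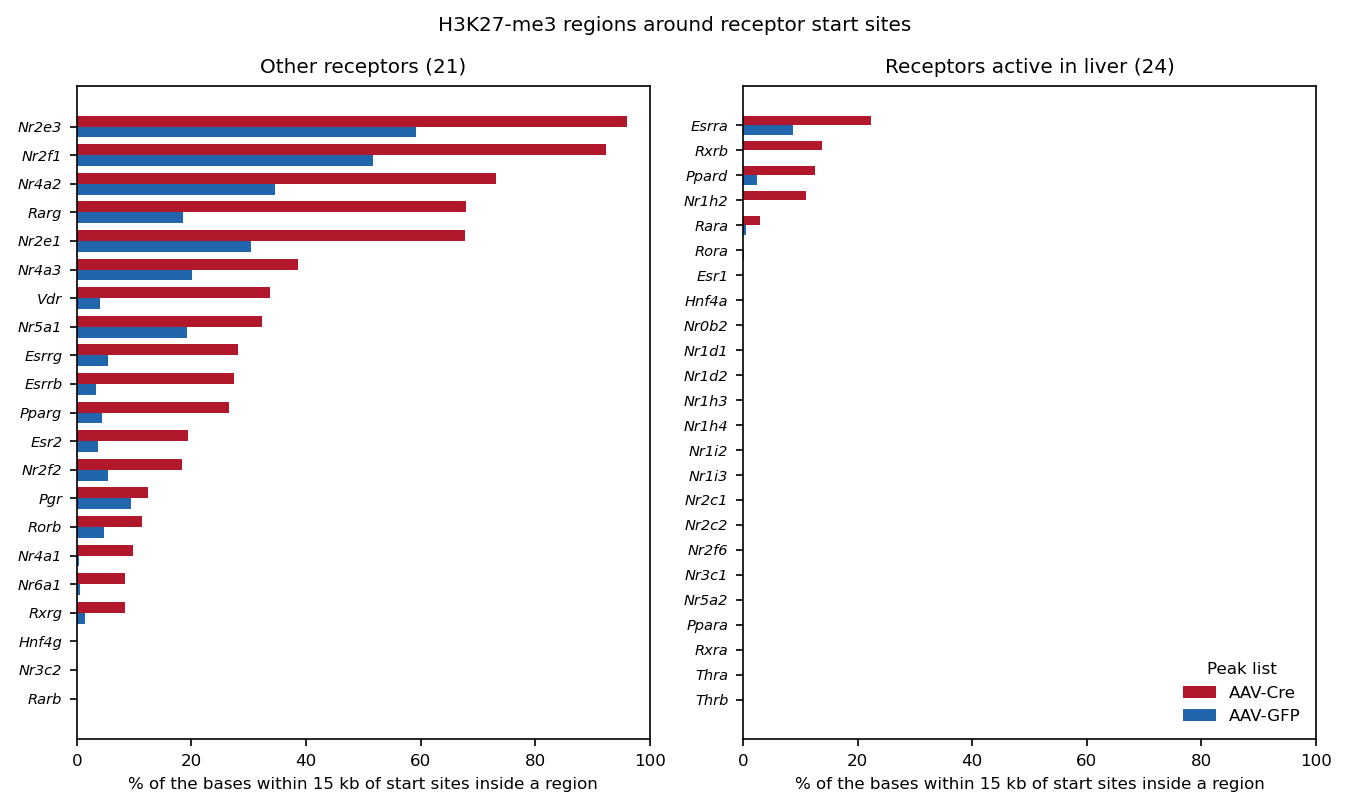
Bars give, for each receptor, the percentage of the bases within 15 kb of its start sites that lay inside an H3K27-me3 region of the AAV-Cre list (red) or the AAV-GFP list (blue), with 1 pooled list per virus group and hence no error bars. Of the 21 other receptors (left) 18 have bars in both lists, with Nr2e3 highest at 96.0% and 59.2%, while 18 of the 24 receptors active in liver (right) have none.

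The share of bases inside regions showed the same contrast. Within 15 kb of the start sites, the other receptors had a median of 26.6% in AAV-Cre and 4.73% in AAV-GFP. For the receptors active in liver the median was 0% in both lists, as was that over all protein-coding genes. Along transcription, the coverage of the other receptors was highest just inside the gene. It reached a mean of 75.8% between 500 and 1000 bp after the 5′ end of the gene in AAV-Cre, and 42.4% between 1000 and 1500 bp in AAV-GFP. Over all genes the highest means were 18.6% and 9.88%, within the first 500 bp. The receptors active in liver had no such maximum at the start, and their highest mean, 12.4% in AAV-Cre, lay between 14500 and 14000 bp upstream.

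**Figure D2:**
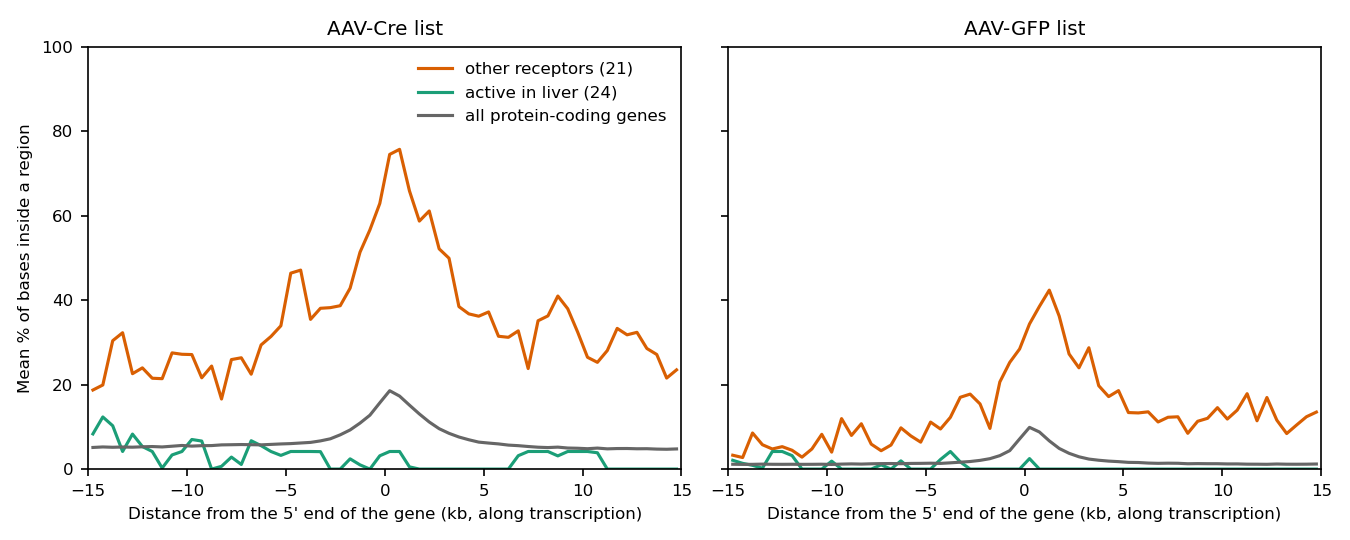
Lines give the mean percentage of bases inside an H3K27-me3 region in bins of 500 bp along transcription, from 15 kb before to 15 kb after the 5′ end of the gene, for the AAV-Cre list (left) and the AAV-GFP list (right). The line of the 21 other receptors peaks at 75.8% and 42.4% just after the 5′ end, above all protein-coding genes at 18.6% and 9.88%, and that of the 24 receptors active in liver stays near 0 around the 5′ end.

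Among the other receptors, Nr2e3 and Nr2f1, orphan receptors of retina and nervous system, were covered most widely. Nr2e3, the photoreceptor-specific receptor (chr9:59942771-59960659), had 96.0% of the bases within 15 kb inside regions in AAV-Cre and 59.2% in AAV-GFP. In AAV-Cre this was made of 4 regions, of which the widest was 15463 bp, and in AAV-GFP of 28 regions, of which the widest was 4115 bp. The same stretch was thus divided into more pieces in AAV-GFP. Nr2f1, encoding COUP-TFI (chr13:78188973-78199757), had 92.3% and 51.7% inside regions. At Nr2e1, encoding the neural stem cell receptor TLX (chr10:42561963-42583632), the shares were 67.8% and 30.3%.

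Nr2f2, which encodes COUP-TFII (chr7:70351944-70366735), differed from its paralog Nr2f1 in extent and in position. It had 18.3% inside regions in AAV-Cre and 5.38% in AAV-GFP. In AAV-Cre a region of 1710 bp (chr7:70365449-70367158) covered its upstream start site. This region had no counterpart in AAV-GFP, where the nearest region began 2295 bp away. That region was upstream of the gene, 1390 bp wide and among the strongest 2.87% of its list by p-value. A region of 4531 bp lay over the same place in AAV-Cre, so the upstream element was in both lists and the one over the start site in AAV-Cre only. The second start site of Nr2f2 was not covered in either list.

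The NR4A receptors, immediate-early orphan receptors, differed among themselves. Nr4a2 (chr2:57106830-57124003) had 73.2% inside regions in AAV-Cre and 34.6% in AAV-GFP. Its downstream start sites lay inside regions in both lists. At its first start site, 48% and 6.00% of the bases within 1 kb were covered. Nr4a3 (chr4:48045153-48086447) had 38.5% and 20.1% inside regions. It was the only one of the 16 receptors with a region within 1 kb in both lists that had fewer covered bases there in AAV-Cre than in AAV-GFP, 43.6% against 54.1%. Nr4a1 (chr15:101254269-101274795) had 9.81% and 0.442%. A region of 2878 bp in AAV-Cre (chr15:101265655-101268532) covered its downstream start site for all bases within 1 kb, and AAV-GFP had none of it. The AAV-GFP region that marked Nr4a1 was 14813 bp upstream of the other start site and was slightly closer to a start site of Grasp. No other receptor was marked by a nearest region as far away, and the closest one left out by the 15 kb rule was that of Nr1h2 in AAV-GFP, at 15291 bp.

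**Figure D3:**
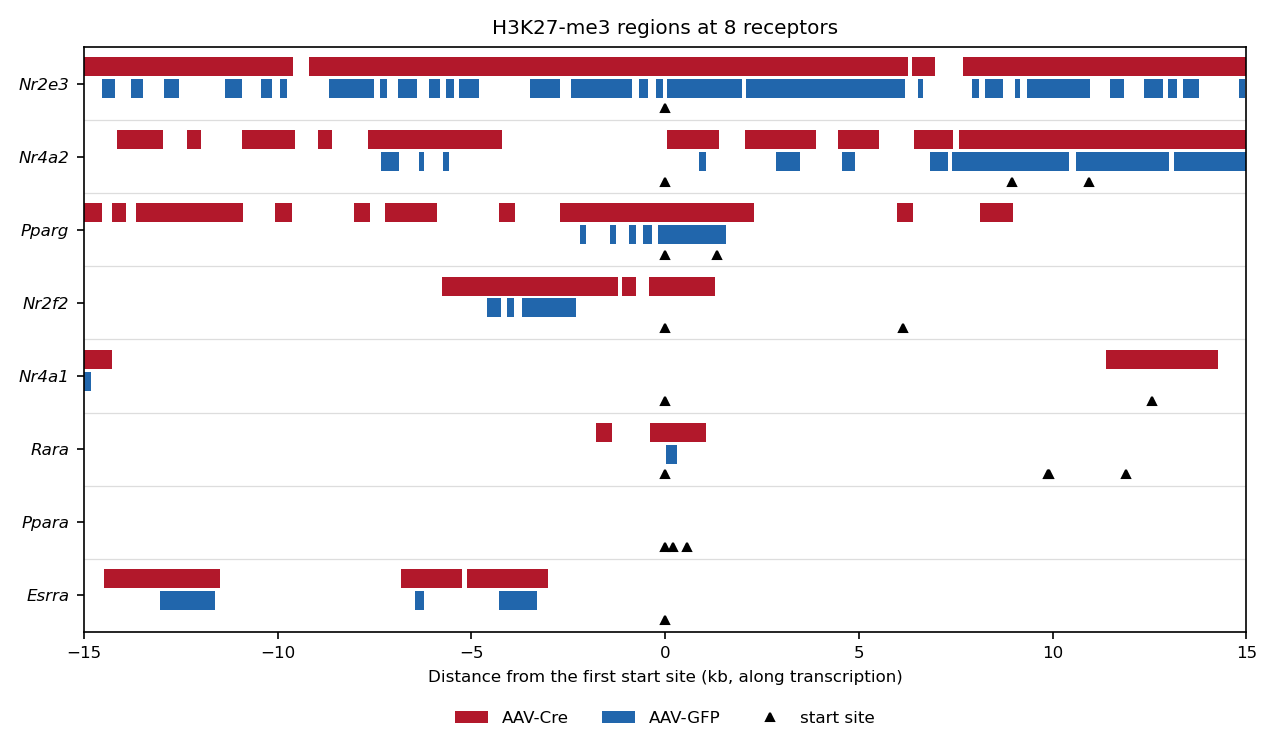
Bars are the H3K27-me3 regions of the AAV-Cre list (red) and the AAV-GFP list (blue) within 15 kb of the first start site of 8 receptors, drawn to scale along transcription, and triangles are the start sites of the receptor. Nr2e3 is spanned by 4 red and 28 blue regions, Nr2f2 and Nr4a1 have a red region over a start site and no blue one, and Ppara has none of either.

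Among the retinoid receptors, Rarg (chr15:102234938-102257517) was the most extensively covered, with 67.9% and 18.5% inside regions, and both of its start sites lay within 1 kb of regions in both lists. Rarb had no region within 15 kb in either list. Its nearest regions were 595843 bp away in AAV-Cre and, in AAV-GFP, 195346 bp away in an intron. The latter was 138 bp wide with a q-value of 0.979. Rara (chr11:98927818-98974942) had a region of 1441 bp over its upstream start site in AAV-Cre and one of 298 bp that began 18 bp after it in AAV-GFP. Of the bases within 1 kb of this start, 68.9% and 14.9% were inside regions. The other start sites of Rara lay 8818 to 16713 bp from any region in AAV-Cre and had none of their bases within 1 kb covered. The mark thus lay at 1 of the 5 start sites of Rara.

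The retinoid X receptors, partners of many members of the family, were unlike one another. Rxrg (chr1:167598384-167639623) had regions at its upstream start sites in both lists. These covered all bases within 1 kb in AAV-Cre and 15.9% in AAV-GFP. Rxra (chr2:27676440-27762957), the main form in liver, was 165847 bp from the nearest region in AAV-Cre and 175464 bp from that in AAV-GFP, and both of those were nearest to Col5a1, a collagen gene. Rxrb (chr17:34031812-34038399) was marked in AAV-Cre only, by regions of 2082 and 2138 bp that began 6030 and 8237 bp from its nearest start site. The first of these covered a start site of Col11a2, another collagen gene, and the second was 983 bp from one. In AAV-GFP the nearest region to Rxrb was 43388 bp away.

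The PPARs also differed. Pparg, the adipocyte receptor (chr6:115360951-115490399), had 26.6% inside regions in AAV-Cre and 4.43% in AAV-GFP. A region of 4997 bp in AAV-Cre and one of 1743 bp in AAV-GFP covered its upstream start sites. The downstream start, 61115 bp from the first, was 3087 and 3295 bp from the nearest region, with none of the bases within 1 kb covered in either list. Ppard (chr17:28232700-28301474) was marked in both lists by regions 9054 and 9593 bp upstream. Of its 3 regions in AAV-Cre, 2 were closer to start sites of Def6, as were 2 of the 3 in AAV-GFP. None of its AAV-GFP regions had a q-value of 0.05 or lower. Ppara (chr15:85734983-85802819) had no region within 84240 bp in AAV-Cre or 85450 bp in AAV-GFP. The nearest region to Ppara in both lists lay over a start site of Pkdrej, a gene known from testis.

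The steroid receptors Esr2 and Pgr and the estrogen-related receptors Esrrb and Esrrg had regions within 1 kb of start sites in both lists, unlike Nr3c2. Esr2, encoding estrogen receptor β (chr12:76120419-76177259), had 19.4% and 3.64% inside regions, and its first start site was covered in both lists. Pgr, the progesterone receptor (chr9:8899833-8968611), had 12.4% and 9.43%, with AAV-Cre at 1.32 times AAV-GFP in covered length, the lowest ratio of the 21 receptors marked in both lists. Esrrb (chr12:86361117-86521628) and Esrrg (chr1:187608791-188214885) each had start sites far apart. At Esrrb, the 4 start sites lay inside regions in AAV-Cre, while in AAV-GFP the last was 36492 bp from any region. At Esrrg, 36.3% of the bases within 1 kb of the downstream start sites were covered in AAV-Cre and none in AAV-GFP, where the nearest region was 9510 bp away.

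Esrra, the partner of PGC-1α in mitochondrial gene expression (chr19:6910977-6921813), was the only one of the 17 hepatocyte receptors marked in both lists. Its regions were not at its own start site. They lay 3010 to 11477 bp upstream in AAV-Cre, and 2 of the 3 covered start sites of Catsperz and Kcnk4. The region over the start site of Kcnk4, a potassium channel gene, was among the strongest 0.147% of AAV-Cre and 1.09% of AAV-GFP. Each of these regions had the start site of another gene nearer than that of Esrra.

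The remaining marked receptors outside the group active in liver act in gonad, adrenal, brain, bone or germ cells. Nr5a1, encoding SF-1 (chr2:38692656-38714542), had 32.3% and 19.3% inside regions. Its second start site was covered in both lists, and its first lay inside a region in AAV-Cre but 1072 bp from one in AAV-GFP. Vdr, the vitamin D receptor (chr15:97854425-97910630), had 33.7% and 3.99%. Its start site was inside a region of 4987 bp in AAV-Cre and 141 bp from one in AAV-GFP, which had a q-value of 0.503. Rorb (chr19:18930605-19111196) had 11.4% and 4.73%. Its AAV-GFP region at 567 bp was the farthest that counted under the 1 kb rule, and the nearest left out was that of Nr2f2 at 2295 bp. Nr6a1, the germ cell nuclear factor, had regions at 3933 and 4128 bp. These were closer to Olfml2a, whose start site lay inside a region in each list. The AAV-GFP regions at Nr6a1 did not reach a q-value of 0.05.

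Start sites taken one by one gave a finer view, since 36 of the 45 receptors have several. Of the 114 start sites, 35 lay within 1 kb of a region in AAV-Cre and 29 in AAV-GFP. All but 1 of these belonged to the other receptors in each list. The exception was the upstream start of Rara. The 6 start sites with covered bases in AAV-Cre and none in AAV-GFP were those of Nr2f2, Nr4a1, Nr5a1 and Esrrb and both downstream starts of Esrrg, and 0 start sites showed the opposite. All bases within 1 kb were inside regions at 20 start sites in AAV-Cre and at 2 in AAV-GFP. The start sites of all genes were not counted in this way. By gene, 7.62% of all genes had a region within 1 kb in AAV-Cre only and 0.287% in AAV-GFP only. The whole AAV-Cre list covered 4.93 times the bases of the AAV-GFP list. In AAV-Cre, 7 receptors had start sites within 1 kb of a region together with others farther away.

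**Figure D4:**
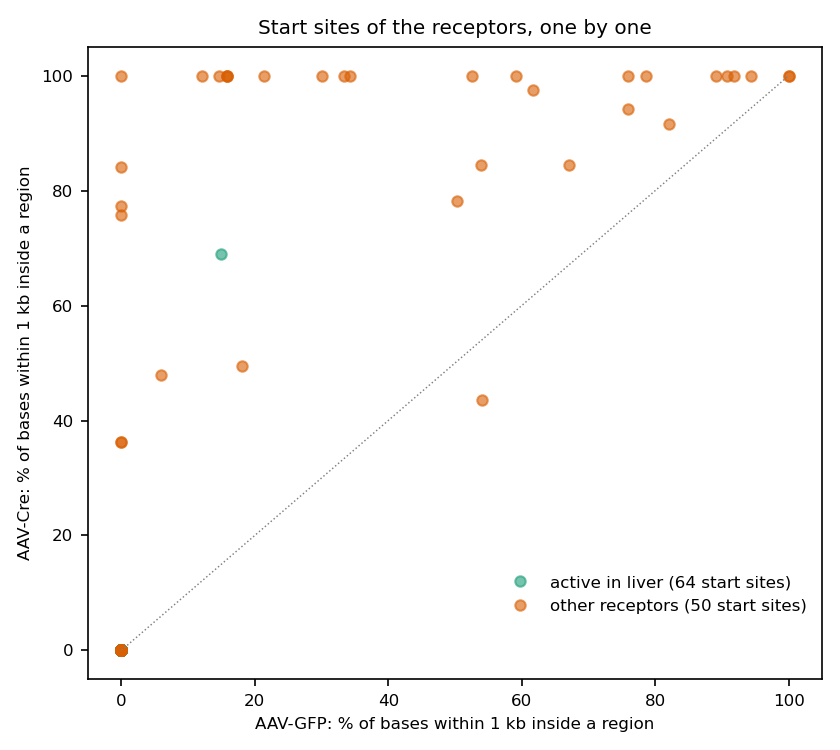
Each point is 1 of the 114 start sites of the receptors, placed by the percentage of bases within 1 kb inside an H3K27-me3 region of the AAV-GFP list (horizontal) and the AAV-Cre list (vertical), with the dotted line at equal coverage. Of the 35 start sites above 0 in AAV-Cre, 34 belong to the other receptors (orange), 6 stand on the vertical axis with no coverage in AAV-GFP, and 79 start sites lie at the origin.

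Most of the hepatocyte receptors were far from any region. Over the 17, the nearest region was at a median of 84240 bp in AAV-Cre and 103082 bp in AAV-GFP. In these lists, 12 and 13 of the 17 were more than 50 kb away, while Esrra was closest at 3010 and 3302 bp. The median over all genes was 26725 and 58282 bp. Nr1h4, which encodes FXR (chr10:89454234-89533585), was 118546 and 120804 bp from the nearest regions. Nr0b2, encoding the bile acid-induced repressor SHP (chr4:133553376-133556536), was 44361 and 46734 bp away, nearest to Trnp1 in AAV-Cre and to Sfn in AAV-GFP. Hnf4a was 86551 and 87488 bp away. The xenobiotic receptors Nr1i2 (PXR) and Nr1i3 (CAR) were 66346 and 17471 bp from a region in AAV-Cre, and 179899 and 36750 bp in AAV-GFP. The region closest to Nr1i3 covered a start site of Pcp4l1.

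The oxysterol receptor Nr1h3 (LXRα) was 60579 and 115120 bp from the nearest regions, and Nr5a2 (LRH-1) 162314 and 214548 bp. Nr1h2 (LXRβ, chr7:44549616-44553951), expressed in most tissues, was marked in AAV-Cre only, by 4 regions that began 6337 to 13568 bp upstream. The 2 farther ones were closer to a start site of Napsa. The widest, of 2884 bp, overlapped the AAV-GFP region that lay 15291 bp from Nr1h2, so that the difference in the call of Nr1h2 at this region rested on the 15 kb limit.

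The clock receptors Nr1d1 and Nr1d2 (REV-ERBα and β) were 61870 and 802668 bp from a region in AAV-Cre, and 103082 and 70767 bp in AAV-GFP. The AAV-GFP region nearest to Nr1d2 was 229 bp wide with a q-value of 0.182, and it was also the one nearest to Thrb. Rora (chr9:68653786-69388246), which acts on the same DNA elements as REV-ERB, was marked in AAV-GFP only. Its region (chr9:68646625-68646744) was 7042 bp upstream, at the smallest width of the list, 120 bp, with a fold enrichment over input of 1.93 and a q-value of 1. By p-value 97.5% of the AAV-GFP regions ranked as high or higher. Rora was no longer marked with q-values limited to 0.05, with a minimum width of 300 bp or in a 5 kb window. In AAV-Cre, the nearest region to Rora was 32269 bp away. The hormone receptors Thrb, Esr1 and Nr3c1 were 257454, 129299 and 376074 bp from a region in AAV-Cre, and 186603, 344941 and 751139 bp in AAV-GFP. Nr2f6, Nr2c1, Nr2c2 and Thra were the last receptors active in liver. They lay 21343 to 75927 bp from a region in AAV-Cre and 60023 to 155024 bp in AAV-GFP.

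**Figure D5:**
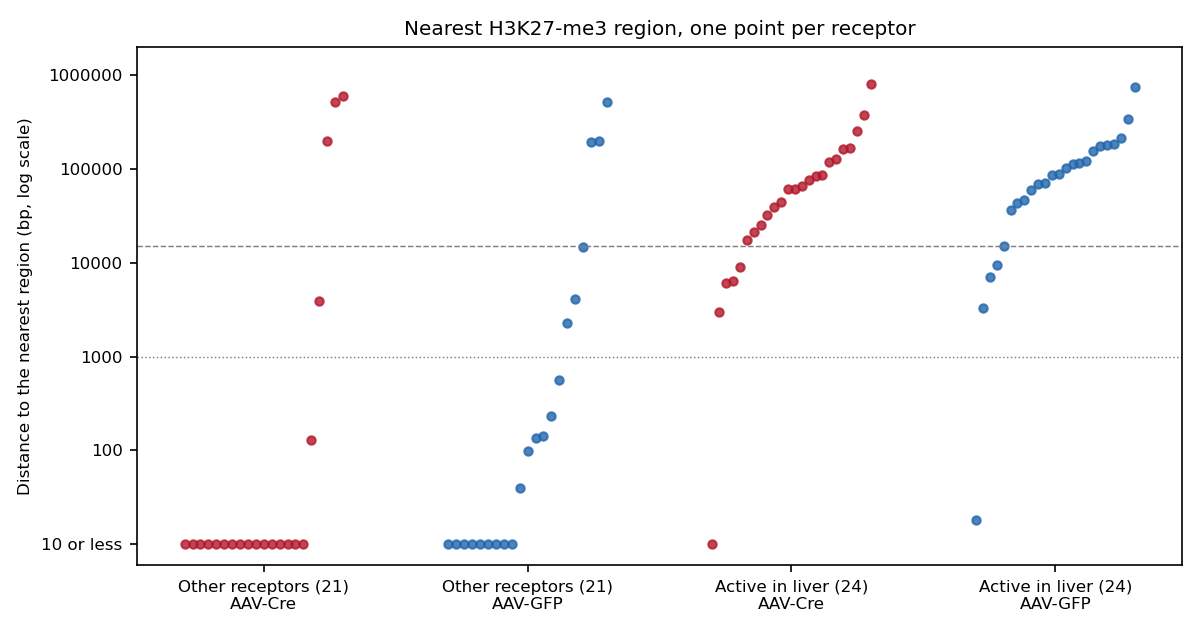
Each point is 1 receptor, with the distance in bp (log scale) from its closest start site to the nearest H3K27-me3 region of the AAV-Cre (red) or AAV-GFP (blue) list, distances of 0 being drawn at the bottom and lines marking 1 kb (dotted) and 15 kb (dashed). Of the 21 other receptors, 16 have a start site inside a region in AAV-Cre and 9 in AAV-GFP, against 1 and 0 of the 24 receptors active in liver, whose medians are 61225 and 86469 bp.

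Where both lists marked a receptor, the AAV-Cre regions were longer in sum. This held within 15 kb for 21 of 21 receptors, with a median ratio of AAV-Cre to AAV-GFP bases of 3.66. It also held for nearly all genes marked in both lists, 5850 of 5862, with a median of 3.80, and the whole lists differed by 4.93. The receptors were therefore close to the background in this respect. Within 1 kb the median ratio was 1.62 over 16 receptors and 1.83 over all such genes. The ratios of single receptors within 15 kb ran from 1.32 at Pgr to 22.2 at Nr4a1. The covered length follows how widely regions were called in each list, and it was not measured as signal.

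Of the 171 AAV-Cre regions at receptors, 69 (40.4%) overlapped an AAV-GFP region, beside 24.2% of the whole list. Of the 188 AAV-GFP regions, 178 (94.7%) overlapped an AAV-Cre region, beside 86.4%. In AAV-Cre, 38 of the regions (22.2%) were in the strongest 10% of the list by p-value, and in AAV-GFP 27 (14.4%). Those over start sites numbered 23 in AAV-Cre and 11 in AAV-GFP, and most of the others lay in introns or upstream.

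CpG dinucleotides were counted within 1 kb of the 5′ end of the gene record. At some receptors, such as Hnf4a, Nr1h3, Nr3c1, Nr2e3 and Vdr, this end is not a start site used for the marks. The median count was 61.5 for the receptors active in liver, 61 for the others and 61 for all genes. In the 250 bases before the first start site, the medians were 16, 11 and 9. The receptors active in liver included the most CpG-rich 5′ end of the family, Nr2f6 with 224. Rxra had 147, Nr1d2 143 and Ppara 131, and none of these was marked. Rxrb with 168 was marked in AAV-Cre only, Rora with 128 in AAV-GFP only and Esrra with 117 in both lists. Of the receptors active in liver, the 18 marked in neither list had a median of 50.5. The 3 marked in both had 91, and the 2 marked in AAV-Cre only had 119.5. Over all genes the median was 54 for those marked in neither list and 74 for those marked in both. Among the other receptors, Vdr had 15, Nr5a1 26 and Nr2f2 29, and in AAV-Cre the 5′ end of each lay inside a region. Within the 21 other receptors, the 17 with a region within 1 kb of a start site had a median of 76 at the 5′ end. The 4 without one had 38.5.

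Genes that work with the receptors were examined by the same window. Of 21 coregulators, none had a region within 1 kb, beside 23.9% of all genes in AAV-Cre and 16.6% in AAV-GFP. Within 15 kb, 4 were marked in AAV-Cre (19.0%, beside 41.5% of all genes) and none in AAV-GFP (beside 27.9%). All 4 were thus marked in AAV-Cre only, a share near the 14.8% of all genes. These were the coactivator Ncoa1, the methyltransferase Prmt1, the deacetylase Sirt1 and Kdm6b, which encodes JMJD3, at distances of 7386 bp for Kdm6b to 12096 bp for Prmt1. Of 25 enzymes that make or break down ligands, 12 were marked in both lists (48%, beside 26.7% of all genes) and none in only 1. They included Aldh1a2, Aldh1a3, Rdh10 and Cyp26b1 of retinoic acid metabolism, the deiodinases Dio2 and Dio3, and Cyp27b1 and Cyp24a1 of vitamin D metabolism. Also marked were Hsd11b2, Cyp11a1, Cyp19a1 and Srd5a2 of steroid metabolism. The most extensive was Cyp26b1, with 69.0% of the bases within 15 kb inside regions in AAV-Cre and 27.4% in AAV-GFP.

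Of 26 liver target genes of the receptors, 6 were marked in AAV-Cre (23.1%, beside 41.5% of all genes) and 2 in AAV-GFP (7.69%, beside 27.9%). Mylip, an LXR target that degrades the LDL receptor, and Slc51a, a subunit of a bile acid exporter, were marked in both. Marked in AAV-Cre only were the PPARα targets Cpt1a and Fgf21, the other exporter subunit Slc51b and the glucocorticoid target Fkbp5. At Fgf21 the nearest regions were 1601 bp away in AAV-Cre and 15961 bp in AAV-GFP. Among these 4, the share inside AAV-Cre regions ranged from 0.804% at Fkbp5 to 3.33% at Fgf21. It was 16.1% at Slc51a and 61.9% at Mylip. The 4 of 26 targets marked in AAV-Cre only (15.4%) stood beside 14.8% of all genes, so this share was near the background.

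Markers of liver cell types gave a scale for these counts. None of 8 hepatocyte markers was marked in either list. All 4 stellate cell markers (Lrat, Des, Pdgfrb, Reln) and all 4 cholangiocyte markers (Krt7, Krt19, Sox9, Epcam) were marked in both lists. Of the 4 endothelial markers, Pecam1 and Stab2 were marked in both and Cdh5 in AAV-Cre only. Of the 4 macrophage markers, Adgre1 and Clec4f were marked in AAV-Cre only. Of all genes, 26.7% were marked in both lists and 14.8% in AAV-Cre only. The part of cell composition in the receptor calls was not tested.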

How the data were processed

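Liver chromatin of JMJD3-floxed mice was sequenced by the authors with and without H3K27-me3 immunoprecipitation, and the sample labels place the 8 libraries in 4 groups. The methods of the study name the AQUAS histone pipeline with a pooled input control. Per the submitters' processing notes, BWA 0.7.13, SAMtools 1.2 and Picard 1.126 were used with mm10, and the methods name MACS for peak calling. Peaks that overlapped between both replicates were kept, so each list pools both mice, and broad domains are split into narrow peaks. The deposited lists give for each peak a fold enrichment over input, a −log10 p-value, a −log10 q-value and a display score, all computed by the authors' peak caller. Fold, p and q were used within a list only, the score was not used, and read depth is unknown.

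Regions were compared with GENCODE M21 genes on GRCm38, using start sites of basic protein-coding transcripts and leaving out mitochondrial genes. Genes were called marked within 15 kb and 1 kb of a start site or by 1 bp of overlap with the gene body. Regions with 1 bp in common were called shared. The members, the division into receptors active in liver and others, and the lists of coregulators, enzymes, targets and markers were chosen with earlier results of these data known. Described in full were receptors marked in only 1 list, those with a region within 1 kb of a start site, and Ppara, Rxra, Nr1h4 and Nr0b2. Of the other lists, genes marked in 1 list or both were named. Another coregulator and another start site sequence were left out and are not reported here. Alternatives were q-values of 0.05 and 0.01, the 34586 strongest regions per list, windows of 5 and 50 kb, the 5′ end of the gene record only, regions closest to the receptor only, a minimum −log10 p of 5, a minimum width of 300 bp and narrower and wider lists of liver receptors. The functions were tested on simulated data. Python 3.11, pandas 2.3.3, numpy 2.4.6 and matplotlib 3.10.9 were used.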

Additional observations from a re-analysis of the deposited data

How the results depend on the processing

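Of 100 recomputed counts, 76 stayed within 1.5 times the value reported. The counts of the other receptors were all among these. With the division kept, they ranged from 15 to 18. The strict list of liver receptors enlarges the group of others, and the wide list reduces it. The strict list gave 23 marked others in AAV-Cre and 22 in AAV-GFP, and the wide list gave 15 in each. These are counts in groups of another size, so they do not show that the marked share of the group was stable. The count of receptors marked within 15 kb in AAV-Cre only (2) became 4 at a q-value of 0.05, 6 at 0.01, 6 at a minimum −log10 p of 5, 6 at a minimum width of 300 bp and 1 in a 5 kb window. The shares of all genes marked in AAV-Cre only were 19.3%, 19.3%, 15.6% and 21.6% under the first 4 of these settings, where the receptors had 8.89% to 13.3%. The count in AAV-GFP only (1, Rora) became 0 under each of these 5 settings and in a 50 kb window. The receptors lost from AAV-GFP at a q-value of 0.01 were Rora, Ppard, Vdr, Rxrg and Nr6a1. The count of liver-active receptors in AAV-Cre (5) became 2 in a 5 kb window, 11 in a 50 kb window, 3 for regions closest to the receptor, 0 with the strict list of 11 genes and 8 with the wide list, which adds 5. The count in AAV-GFP (4) became 2 at both q-values, at the minimum −log10 p and in the 5 kb window, 1 at the minimum width, 8 in the 50 kb window, 0 with the strict list and 7 with the wide list. With equal numbers of regions, the counts of receptors were those reported. No paired analysis was possible because each deposited list pools both mice of its group, and for the same reason no replicate could be left out.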
